A study of Sus scrofa with 12 samples.

Results

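Genes for the non-collagen extracellular matrix and for fibroblasts were followed in the longissimus dorsi (LD) muscle of Iberian pigs that differed in breeding value for myoglobin (MB). The set was drawn up by gene symbol and known role, with earlier results of these data known, and listed 45 genes, of which 44 had a row among the 25880 genes of the deposited count tables. THY1, a fibroblast surface glycoprotein, had no row under its symbol and is not reported. The genes fall into 6 role classes, namely elastic fibre (11 genes), small leucine-rich proteoglycans (7), large proteoglycan and adhesive proteins (5), matricellular and mineral-binding proteins (10), basement membrane (6), and fibroblast surface and collagen processing (6, with THY1). EFEMP1, FBLN1 and MFAP2, and MGP by its transcript, were on the list of differentially expressed features that the study drew from these same libraries, so their direction here is not independent evidence.

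The pigs were castrated males of a closed Iberian population, fattened outdoors on acorns and grass, and both groups shared breed, sex, feeding and muscle. The High MB group held 6 pigs of high breeding value and the Low MB group 6 pigs of low breeding value, with 1 library per pig and no treatment. Myoglobin in the muscle averaged 2.48 ± 0.0657 mg/g for the High MB pigs and 1.39 ± 0.147 mg/g for the Low MB pigs (SD, n = 6 each), with breeding values of 0.184 ± 0.0194 and -0.2005 ± 0.0390. The groups were therefore set by genetic merit within a single population and not by a gene manipulation, and each sample was a piece of whole muscle with all its cell types.

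Connective tissue fibroblasts wrap muscle fibres and bundles in a matrix of collagen, elastic fibres and proteoglycans. Elastic fibres have a core of elastin laid on a scaffold of fibrillin microfibrils, and fibulins, MAGPs and EMILINs bind both. Small leucine-rich proteoglycans coat collagen fibrils, basement membrane laminins, nidogens and perlecan surround each muscle fibre, and matricellular proteins such as tenascin-C and the CCN proteins are made in large amounts during remodelling or mechanical load.

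Each library held 38914271 to 91318334 gene counts. Of the 12, 5 were deep, with 59227608 or more (pigs 4 and 6 of the High MB group and pigs 1, 5 and 6 of the Low MB group), and 7 were of standard depth, with 40001432 or fewer. All 44 genes passed the filter on low counts, and their smallest count in any pig was 10, for POSTN. High MB pig 2 stood apart over all genes: its TMM factor was 1.214, and its levels lay at a median distance of 0.348 log2 units from the 12-pig mean, against at most 0.262 in any other pig. Markers of the labelled tissue were abundant in every library, where ACTA1, CKM, DES, TNNT1 and TNNT3 summed to between 39450 CPM (High MB pig 2) and 116400 CPM (Low MB pig 5). TTN, MYH1, MYH2 and MYH7 had no row under their symbols. CPM is the count of a gene scaled to a common library size with the TMM factor, and means are given ± SD over the 6 pigs of a group.

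The promoters of EFEMP1, MGP and FBLN1 are shown because these genes had the smallest p-values of the set and, with DESeq2, were the members that reached the study's limits. Each line gives the 250 bases before the RefSeq gene start on Sscrofa11.1, from 5′ to 3′ on the gene's strand. Capitals mark matches on either strand to the SMAD motif CAGACA, the TEAD motif GGAATG, the Sp1 motif GGGCGG and the core promoter box TATAAA. The first pair of Sp1 matches in FBLN1 overlaps. The AP-1 motif TGANTCA was also searched and was not in these windows.
EFEMP1 (chr3:85407427-85407676, plus strand): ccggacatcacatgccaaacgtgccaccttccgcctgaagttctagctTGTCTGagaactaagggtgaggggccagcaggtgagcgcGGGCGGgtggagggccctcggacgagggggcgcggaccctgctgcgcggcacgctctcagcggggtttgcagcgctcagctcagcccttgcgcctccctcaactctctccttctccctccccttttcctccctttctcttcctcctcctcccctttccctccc
MGP (chr5:57665022-57665271, plus strand): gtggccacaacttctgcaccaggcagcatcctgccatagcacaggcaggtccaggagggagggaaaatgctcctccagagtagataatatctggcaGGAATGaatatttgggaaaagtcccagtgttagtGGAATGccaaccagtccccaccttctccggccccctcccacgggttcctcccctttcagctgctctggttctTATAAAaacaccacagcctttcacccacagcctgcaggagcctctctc
FBLN1 (chr5:3927179-3927428, minus strand): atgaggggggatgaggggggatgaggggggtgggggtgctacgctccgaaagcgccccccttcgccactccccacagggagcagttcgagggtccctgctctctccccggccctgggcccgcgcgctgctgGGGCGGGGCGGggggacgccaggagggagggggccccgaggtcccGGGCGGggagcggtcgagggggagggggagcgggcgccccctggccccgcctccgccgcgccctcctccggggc
The MGP promoter held TATAAA 48 bases before the gene start and GGAATG 154 and 120 bases before it. The EFEMP1 promoter held CAGACA at 202 and GGGCGG at 163 bases, and the FBLN1 promoter held GGGCGG at 119, 114 and 74 bases. Over the promoters of the 44 genes, CAGACA was found in 22.7%, GGAATG in 22.7%, GGGCGG in 36.4%, TATAAA in 9.09% and TGANTCA in 9.09%. The shares among 19556 promoters of the same length were 12.8%, 10.3%, 45.9%, 9.77% and 5.27%, and the median GC content was 57.6% in both sets. A match is a string of letters and not a shown binding site.

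The matrix and fibroblast genes lay mostly on the High MB side. The log2 fold change (High MB over Low MB) was above 0 for 39 of 44 genes, against 46.9% of the 13373 genes tested, and its median was 0.46, against -0.02 over all genes tested. It was over 0.58 for 18 genes (6.77% of all genes tested) and under -0.58 for 0 (1.52%). At the limits the study set (adjusted p-value below 0.10, fold change beyond 0.58 on the log2 scale in either direction), edgeR called 0 of the 44, with adjusted p-values between 0.563 and 0.991, and it called 0% of all genes tested. At an unadjusted p-value under 0.05, 21 of the 44 (47.7%) were higher in the High MB group, against 5.33% of all genes tested, and 0 were lower, against 3.13%. The exact permutation test of log2 CPM put 14 of the 44 under 0.05. MFAP4, FMOD, BGN, FN1, VCAN, PDGFRA and FAP were among the 21 but not among the 14. The share of all genes tested was not computed for that test. DESeq2 with its defaults, which gave no p-value for TNC, called 3 of 43 as higher, EFEMP1 (adjusted p = 0.0434), MGP (0.0568) and FBLN1 (0.0774), against 0.141% of the 19158 genes it tested. These 3 were all on the study's own list, MGP by its transcript. That list was drawn with DESeq2 from these same libraries, so the share is not independent evidence.

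**Figure D1:**
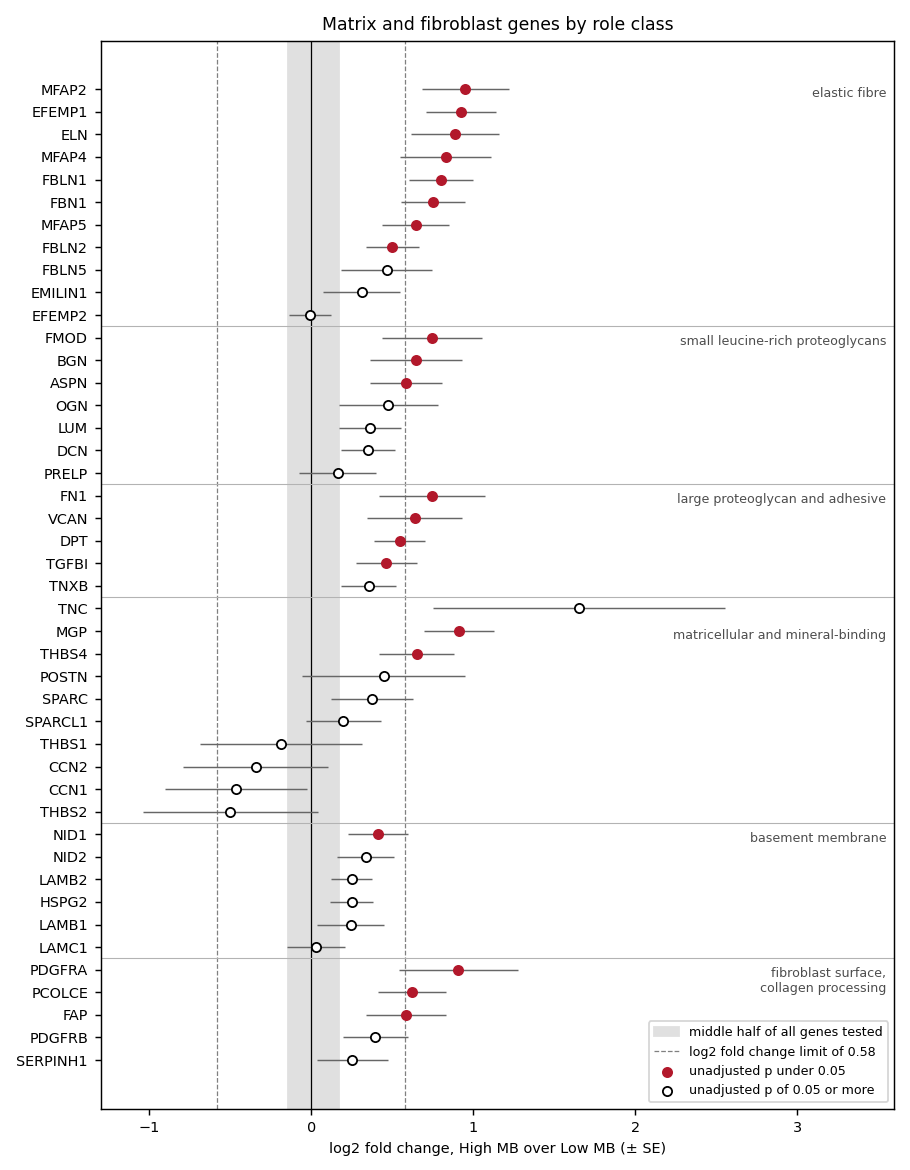
Log2 fold change of each of the 44 genes (x axis, High MB over Low MB, with a standard error derived from edgeR's F statistic), grouped by role class and ordered by size. Filled points have an unadjusted p-value under 0.05 and open points do not, the grey band spans the quartiles of all genes tested (-0.14 to 0.17), and dashed lines mark -0.58 and 0.58. The elastic fibre genes sit furthest to the right as a class, with a median of 0.75, and the matricellular class spreads from -0.50 to 1.65.

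The direction was shared by the libraries of both depths, while the count moved with single pigs. In the deep libraries, from 2 pigs of the High and 3 of the Low group, 42 of 44 log2 fold changes were above 0, with a median of 0.60 and 13 genes at an unadjusted edgeR p-value under 0.05 (2.17% of all genes tested there). In those of standard depth, from 4 pigs of the High and 3 of the Low group, 40 were above 0, with a median of 0.47, and 16 genes reached that p-value (4.86%). The deep libraries included both Low MB pig 1 and High MB pig 4. Over the 44 genes these pigs had the lowest and highest median deviation from the 12-pig mean (-0.77 and 0.47 log2 units). With each pig left out in turn the count ran from 15 to 26. It was 15 (3.88% of all genes tested) without Low MB pig 1, where the median was 0.33, 16 without High MB pig 4 (4.58%) or Low MB pig 3 (4.44%), 17 without Low MB pig 2 (4.65%) and 26 without Low MB pig 6 (7.24%). In settings added after seeing the data, the count was 23 (5.06%) without High MB pig 2 and Low MB pig 4 and 19 (5.16%) without High MB pig 2 and Low MB pig 1. As these were whole muscle samples, fewer cells of a type and less RNA per cell cannot be told apart.

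In the elastic fibre class, 8 of 11 genes were higher in the High MB group at an unadjusted p-value under 0.05 (5.33% of all genes tested), and the median log2 fold change was 0.75. The summed CPM of the 11 genes ran from 204.8 to 290 for High MB pigs and from 122 to 200.3 for Low MB pigs. These sums did not overlap, but High MB pig 2 (204.8) lay close above Low MB pig 6 (200.3), and no background of sums was drawn. EFEMP1, FBLN1 and MFAP2, already on the study's list from these libraries, are among the 8 genes and in the sums. With each pig left out in turn, 8 or 9 of the 11 reached that p-value, against 3.88% to 7.24% of all genes tested, and without Low MB pig 1 the median was 0.65.

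FBLN1 (chr5:3839498-3927178) encodes fibulin-1, a glycoprotein of elastic fibres and basement membranes. Its level ran from 14.2 to 21.8 CPM (median 18.6) in the High MB pigs and from 5.13 to 12.9 CPM (median 10.8) in the Low MB pigs. FBLN1 was the only member of the set without overlap between groups, a pattern seen in 0.232% of all genes tested in this direction. The means were 17.9 ± 3.13 and 10.3 ± 2.85 CPM, and the log2 fold change was 0.80 (SE 0.20, edgeR unadjusted p = 0.00107). The exact permutation test of log2 CPM gave 0.00216, the smallest p-value that 6 pigs against 6 allow. The lowest value was that of Low MB pig 1, and without this pig the log2 fold change was 0.66.

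EFEMP1 (chr3:85407677-85473251) encodes fibulin-3, a relative of fibulin-1, and overlaps CCDC85A on the opposite strand. Its High MB values ran from 7.01 to 14.1 CPM (median 12.7) and its Low MB values from 3.50 to 7.57 CPM (median 6.58). Only High MB pig 6 lay within the Low MB range, and the other 5 exceeded every Low MB pig. The means were 11.4 ± 2.91 and 6.02 ± 1.60 CPM, which gave a log2 fold change of 0.92 (SE 0.22, edgeR unadjusted p = 0.000748; exact permutation p = 0.00649). The remaining fibulins differed among themselves. FBLN2 ran from 29.1 to 35.8 CPM (median 33.9) against 13.6 to 30.7 CPM (median 23.5), a log2 fold change of 0.50 (SE 0.16, edgeR unadjusted p = 0.00753), and 5 of the High MB pigs exceeded the highest Low MB pig. FBLN5, which elastic fibre assembly needs, had a log2 fold change of 0.47 (SE 0.28, edgeR unadjusted p = 0.118) and 0.31 without Low MB pig 1, and EFEMP2, fibulin-4, had 37.7 ± 6.99 and 37.9 ± 3.07 CPM and a log2 fold change of -0.01 (SE 0.13).

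Among the microfibril genes, FBN1, MFAP2, MFAP4 and MFAP5 were higher in the High MB group at an unadjusted p-value under 0.05, with edgeR adjusted p-values of 0.563. FBN1 (chr1:123102011-123359649), which encodes the backbone protein of the microfibril, ran from 39.5 to 67.0 CPM (median 51.1) in the High MB pigs and from 16.8 to 44.2 CPM (median 29.4) in the Low MB pigs, and only Low MB pig 6 reached into the High MB range. The log2 fold change of FBN1 was 0.75 (SE 0.20, edgeR unadjusted p = 0.00195; exact permutation p = 0.00649). MFAP2 (chr6:75607515-75615680), which encodes MAGP-1, ran from 1.72 to 3.92 CPM (median 3.31) against 0.705 to 1.85 CPM (median 1.67), from 48 to 345 counts per pig. High MB pig 1 lay among the Low MB pigs for MFAP2, whose log2 fold change was 0.95 (SE 0.27, edgeR unadjusted p = 0.00332), and 0.80 without Low MB pig 1, which lay far below its group.

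MFAP5, which encodes MAGP-2, ran from 11.09 to 32.8 CPM (median 22.8) in the High MB pigs and from 11.9 to 17.0 CPM (median 13.8) in the Low MB pigs, with a log2 fold change of 0.65 (SE 0.21, edgeR unadjusted p = 0.00720). MFAP4, a further microfibril-bound glycoprotein, ran from 7.54 to 30.9 CPM (median 20.2) against 7.64 to 17.6 CPM (median 9.83), with a log2 fold change of 0.83 (SE 0.28, edgeR unadjusted p = 0.0101; exact permutation p = 0.0519). For both genes the lowest of the 12 was High MB pig 2, although it was the highest for MFAP2 and EFEMP1. Without High MB pig 2 the log2 fold change was 0.81 for MFAP5 and 1.01 for MFAP4. MFAP4 overlaps MAPK7 on the opposite strand.

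ELN (chr3:11214194-11245891), the gene of elastin itself, ran from 17.2 to 47.1 CPM (median 32.3) in the High MB pigs and from 9.61 to 29.6 CPM (median 15.0) in the Low MB pigs. High MB pig 6 was the highest and Low MB pig 5 the only Low MB pig above 22 CPM. The mean was 31.8 ± 10.5 CPM against 17.2 ± 7.20 CPM, a log2 fold change of 0.89 (SE 0.27, edgeR unadjusted p = 0.00551; exact permutation p = 0.0173), and 0.74 without High MB pig 6. EMILIN1, which lies between the elastin core and the microfibrils, had a log2 fold change of 0.31 (SE 0.24, edgeR unadjusted p = 0.209), and 0.15 without High MB pig 2.

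**Figure D2:**
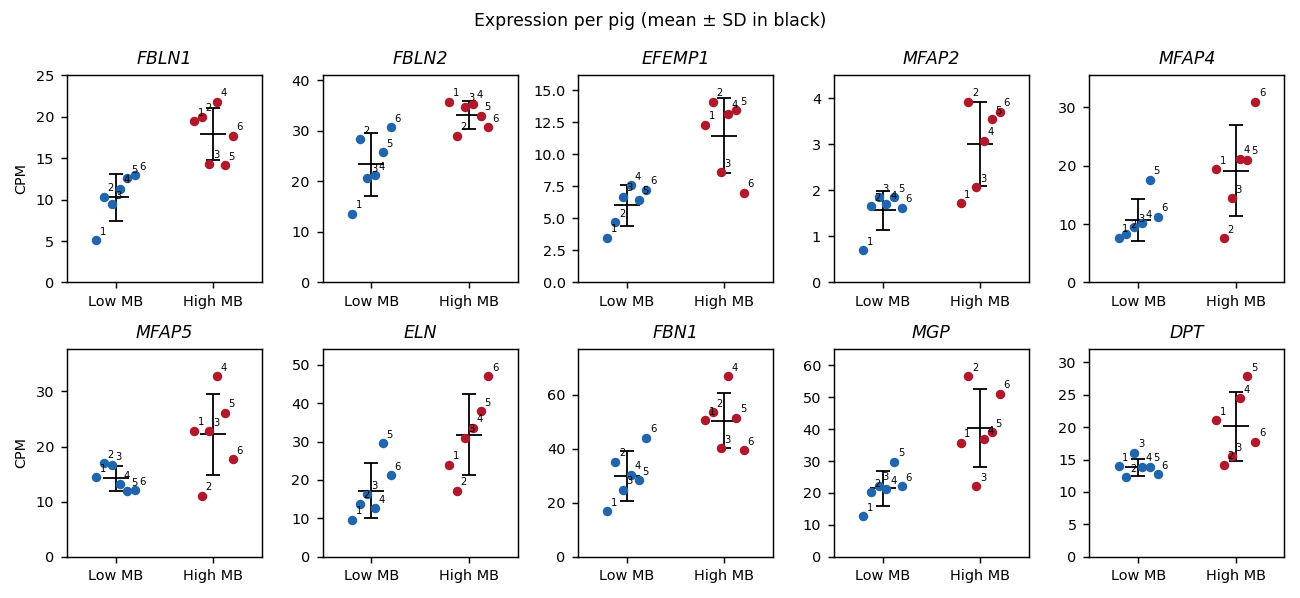
CPM (y axis, from 0) of each pig for the 10 genes with the smallest p-values, with the Low MB pigs on the left and the High MB pigs on the right of each panel, numbered as individuals, and the mean ± SD of each group in black. The groups are fully apart for FBLN1 alone, Low MB pig 1 is the lowest pig for FBLN1, FBLN2, EFEMP1, MFAP2, ELN, FBN1 and MGP, and High MB pig 2 is at the bottom of its group for FBLN2, MFAP4, MFAP5, ELN and DPT and at the top for EFEMP1, MFAP2 and MGP.

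The small leucine-rich proteoglycans all had log2 fold changes above 0, from 0.16 (PRELP) to 0.74 (FMOD), and 3 of the 7 were higher in the High MB group at an unadjusted p-value under 0.05 (5.33% of all genes tested). The count ran from 1 to 5 with each pig left out, and was 1 without Low MB pig 1 (3.88%) or 3 (4.44%). DCN, which encodes decorin, ran from 92.8 to 179 CPM (median 126) in the High MB pigs and from 87.7 to 120.2 CPM (median 104) in the Low MB pigs. The ranges overlapped, High MB pigs 2, 3 and 6 lay within the Low MB range, and the log2 fold change was 0.35 (SE 0.17, edgeR unadjusted p = 0.0546). LUM, the gene of lumican, lies within 100 kb of DCN on chromosome 5 and had a similar log2 fold change of 0.36 (SE 0.19, edgeR unadjusted p = 0.0780).

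FMOD, which encodes fibromodulin, ran from 5.92 to 20.6 CPM (median 9.58) against 3.29 to 10.4 CPM (median 6.49), with a log2 fold change of 0.74 (SE 0.31, edgeR unadjusted p = 0.0292). BGN, which encodes biglycan, ran from 19.5 to 51.5 CPM (median 24.7) against 8.93 to 25.8 CPM (median 20.9), with a log2 fold change of 0.65 (SE 0.28, edgeR unadjusted p = 0.0389). Both were highest in High MB pig 6, and without this pig the log2 fold changes were 0.46 for FMOD (edgeR unadjusted p = 0.110) and 0.42 for BGN (edgeR unadjusted p = 0.128), so that neither kept a p-value under 0.05. BGN also missed it without High MB pig 2 (edgeR unadjusted p = 0.0725) or Low MB pig 1 (edgeR unadjusted p = 0.0737), and FMOD without Low MB pig 1 (edgeR unadjusted p = 0.0515). ASPN, which encodes asporin, ran from 4.62 to 8.42 CPM (median 6.23) against 2.94 to 6.33 CPM (median 3.92), with a log2 fold change of 0.59 (SE 0.22, edgeR unadjusted p = 0.0198). The groups overlapped for these 3 genes, and only ASPN had an exact permutation p-value under 0.05 (p = 0.0411). OGN, the neighbour of ASPN on chromosome 3, had a log2 fold change of 0.48 (SE 0.30, edgeR unadjusted p = 0.139) that was 0.27 without High MB pig 4, and both genes lie inside CENPP, which is on the opposite strand.

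Among the large proteoglycan and adhesive proteins, 4 of 5 genes were higher in the High MB group at an unadjusted p-value under 0.05 (5.33% of all genes tested). With each pig left out the count ran from 2 to 5 (3.88% to 7.24%), and it was 2 without High MB pig 1 or 4 or without Low MB pig 1, 2, 3 or 5. DPT, which encodes dermatopontin, a decorin-binding protein, had the smallest spread of the class. It ran from 14.2 to 27.9 CPM (median 19.4) in the High MB pigs and from 12.3 to 16.1 CPM (median 13.9) in the Low MB pigs, with a log2 fold change of 0.55 (SE 0.16, edgeR unadjusted p = 0.00367; exact permutation p = 0.0130). TGFBI, which encodes an integrin-binding matrix protein induced by TGF-beta, ran from 11.3 to 19.2 CPM (median 15.1) against 6.24 to 14.7 CPM (median 11.3), with a log2 fold change of 0.46 (SE 0.19, edgeR unadjusted p = 0.0263). TNXB, the gene of tenascin-X, had a log2 fold change of 0.35 (SE 0.17, edgeR unadjusted p = 0.0529), and it overlaps CYP21A2 and ATF6B.

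FN1 and VCAN depended more on single pigs. FN1, which encodes fibronectin, ran from 52.2 to 144 CPM (median 70.3) in the High MB pigs and from 21.1 to 93.1 CPM (median 40.4) in the Low MB pigs. The highest was High MB pig 2, and Low MB pig 4 came within 1 CPM of High MB pig 4, the next highest. The log2 fold change of FN1 was 0.74 (SE 0.33, edgeR unadjusted p = 0.0393) and 0.52 without High MB pig 2 (edgeR unadjusted p = 0.118). VCAN, which encodes versican, ran from 11.12 to 37.9 CPM (median 15.6) against 8.06 to 20.7 CPM (median 10.4), a log2 fold change of 0.64 (SE 0.29, edgeR unadjusted p = 0.0456) that was 0.32 without High MB pig 2 (edgeR unadjusted p = 0.162). Without Low MB pig 1 the edgeR unadjusted p-values were 0.0756 for FN1 and 0.0936 for VCAN, at log2 fold changes of 0.59 and 0.55.

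The matricellular and mineral-binding class was mixed, with 6 of 10 log2 fold changes above 0 and 2 genes, MGP and THBS4, higher in the High MB group at an unadjusted p-value under 0.05 (5.33% of all genes tested). MGP (chr5:57665272-57669360) encodes matrix Gla protein, an inhibitor of calcification. It ran from 22.2 to 56.6 CPM (median 37.9) in the High MB pigs and from 12.8 to 29.8 CPM (median 21.6) in the Low MB pigs. Only High MB pig 3 lay within the Low MB range, and the log2 fold change was 0.91 (SE 0.22, edgeR unadjusted p = 0.000850; exact permutation p = 0.00866). Without Low MB pig 1 it was 0.80 and without High MB pig 2 it was 0.81.

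THBS4, which encodes thrombospondin-4, found in muscle and tendon matrix, ran from 49.0 to 133 CPM (median 86.4) in the High MB pigs and from 34.2 to 81.1 CPM (median 60.3) in the Low MB pigs. Its log2 fold change was 0.65 (SE 0.23, edgeR unadjusted p = 0.0135; exact permutation p = 0.0455), and 4 of the High MB pigs exceeded the highest Low MB pig. SPARC, a collagen-binding matricellular protein, ran from 173 to 361 CPM (median 304) in the High MB pigs and from 139.9 to 324 CPM (median 201) in the Low MB pigs. These ranges overlapped over most of their length, and the log2 fold change was 0.38 (SE 0.25, edgeR unadjusted p = 0.158). Its relative SPARCL1 had a log2 fold change of 0.20 (SE 0.23), from 0.09 without Low MB pig 1 to 0.37 without High MB pig 2.

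TNC, THBS1, THBS2, CCN1, CCN2 and POSTN had the widest spread of all members, with SDs within groups between 0.99 and 1.62 log2 units, against a median of 0.449 over the 44 genes and 0.326 over all genes tested. TNC, the gene of tenascin-C, had the largest log2 fold change of the set, 1.65 (SE 0.90, edgeR unadjusted p = 0.0881). This value rested on High MB pig 2 at 156 CPM, while the other High MB pigs had at most 18.9 CPM and the Low MB pigs ran from 2.73 to 36.1 CPM. Without High MB pig 2 the log2 fold change of TNC was -0.20. CCN1 and CCN2, matricellular genes induced by mechanical load, and THBS1, which encodes thrombospondin-1, were lowest in Low MB pig 1 (6.57, 4.82 and 5.76 CPM) and highest in Low MB pig 4 (72.0, 51.8 and 63.1 CPM). The whole range of these 3 genes thus lay within the Low MB group. Their log2 fold changes were -0.46 (SE 0.44), -0.34 (SE 0.45) and -0.19 (SE 0.50), with unadjusted p-values from edgeR of 0.306, 0.457 and 0.716. With each pig left out they ran from -0.68 to -0.15 for CCN1, from -0.57 to -0.09 for CCN2 and from -0.53 to 0.14 for THBS1, and the upper end was in each case the value without Low MB pig 4.

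THBS2, the gene of thrombospondin-2, had another pattern. It was lowest in High MB pigs 1 and 6 (5.92 and 9.73 CPM), while the other 10 pigs had between 35.8 and 111 CPM, Low MB pig 1 among the highest at 110.2 CPM. Its log2 fold change was -0.50 (SE 0.54, edgeR unadjusted p = 0.369), from -0.98 without High MB pig 3 to -0.27 without High MB pig 1. POSTN, which encodes periostin, ran from 0.257 to 2.15 CPM over the 12 pigs, from 10 to 129 counts per pig.

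**Figure D3:**
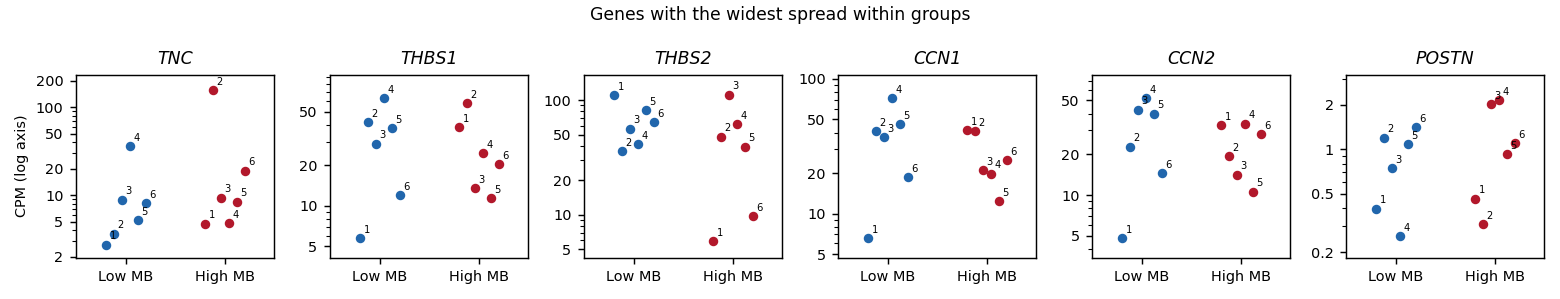
CPM (y axis, log scale) of each pig for the 6 genes with the widest spread within groups, with the Low MB pigs on the left and the High MB pigs on the right, numbered as individuals. High MB pig 2 stands alone for TNC at 156 CPM, Low MB pigs 1 and 4 are the lowest and highest of the 12 for THBS1, CCN1 and CCN2, and High MB pigs 1 and 6 are the lowest for THBS2.

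The basement membrane genes differed little, with log2 fold changes from 0.03 (LAMC1) to 0.41 (NID1) and a median of 0.25. Of the 6, NID1 alone reached an unadjusted p-value under 0.05 (5.33% of all genes tested), and with each pig left out 0 to 3 of the class did (3.88% to 7.24%). NID1, which encodes nidogen-1, the link between laminin and collagen IV, ran from 44.9 to 63.2 CPM (median 53.5) in the High MB pigs and from 21.2 to 55.4 CPM (median 40.9) in the Low MB pigs. The log2 fold change was 0.41 (SE 0.19, edgeR unadjusted p = 0.0439) and 0.28 without Low MB pig 1 (edgeR unadjusted p = 0.0651). HSPG2, which encodes perlecan, ran from 187 to 214 CPM (median 199) in the High MB pigs and from 118 to 207 CPM (median 168) in the Low MB pigs, with a log2 fold change of 0.25 (SE 0.13, edgeR unadjusted p = 0.0848). The High MB values of HSPG2 lay within the Low MB range or just above it, and Low MB pigs 5 and 6 exceeded 4 of the High MB pigs. The laminin chain genes LAMB1, LAMB2 and LAMC1 had log2 fold changes of 0.24, 0.25 and 0.03. That of LAMB1 with each pig left out ran from 0.10 (Low MB pig 1) to 0.38 (Low MB pig 4) and that of LAMC1 from -0.07 (Low MB pig 1) to 0.21 (Low MB pig 4).

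In the class of fibroblast surface and collagen processing genes, 3 of the 5 measured were higher in the High MB group at an unadjusted p-value under 0.05 (5.33% of all genes tested). The count ran from 1 to 4 with each pig left out, and was 1 without Low MB pig 1 (3.88%). PCOLCE, which encodes an enhancer of procollagen cleavage, ran from 25.02 to 39.0 CPM (median 36.9) in the High MB pigs and from 12.1 to 31.2 CPM (median 23.7) in the Low MB pigs, with a log2 fold change of 0.62 (SE 0.21, edgeR unadjusted p = 0.0107; exact permutation p = 0.0195). PCOLCE was the gene of the class that kept an unadjusted p-value under 0.05 without Low MB pig 1 (log2 fold change 0.53, edgeR unadjusted p = 0.0251).

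PDGFRA, a receptor that marks the interstitial fibroblast progenitors of muscle, ran from 2.55 to 11.5 CPM (median 4.22) against 1.29 to 3.99 CPM (median 2.69). The value of High MB pig 2 was more than 5 CPM above every other, and the log2 fold change of 0.91 (SE 0.37, edgeR unadjusted p = 0.0265) was 0.52 without it (edgeR unadjusted p = 0.107). FAP, fibroblast activation protein, ran from 4.46 to 10.2 CPM (median 6.94) against 2.26 to 6.22 CPM (median 4.36), with a log2 fold change of 0.58 (SE 0.25, edgeR unadjusted p = 0.0334; exact permutation p = 0.0541). SERPINH1, the collagen chaperone of the endoplasmic reticulum, ran from 39.4 to 106 CPM (median 57.3) against 32.5 to 64.6 CPM (median 54.5), with a log2 fold change of 0.25 (SE 0.22, edgeR unadjusted p = 0.266) that was 0.05 without High MB pig 2, its highest pig, and 0.15 without Low MB pig 1. The receptor gene PDGFRB had a log2 fold change of 0.39 (SE 0.20, edgeR unadjusted p = 0.0677).

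Single pigs recurred across classes. Low MB pig 1 was the lowest of the 12 pigs for 26 of the 44 genes (59.1%), while it was the lowest for 12% of all genes tested, and its median deviation from the 12-pig mean was -0.77 log2 units. High MB pig 4 was the highest for 11 of the 44 (25%), against 3.96% of all genes tested, among them DCN, FBLN1, FBN1, MFAP5, SPARC and FAP. The same count of 11 was found for High MB pig 2, but that pig was the highest for 20.1% of all genes tested, and it was the lowest for 6. The summed CPM of the marker lists was lowest of the 12 in Low MB pig 1 for endothelial (74.9), smooth muscle and pericyte (169), adipocyte (111) and macrophage (26.6) genes, while its muscle fibre sum of 81030 lay within the range of the others. The part of these cell types in the low values of Low MB pig 1 was not tested.

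**Figure D4:**
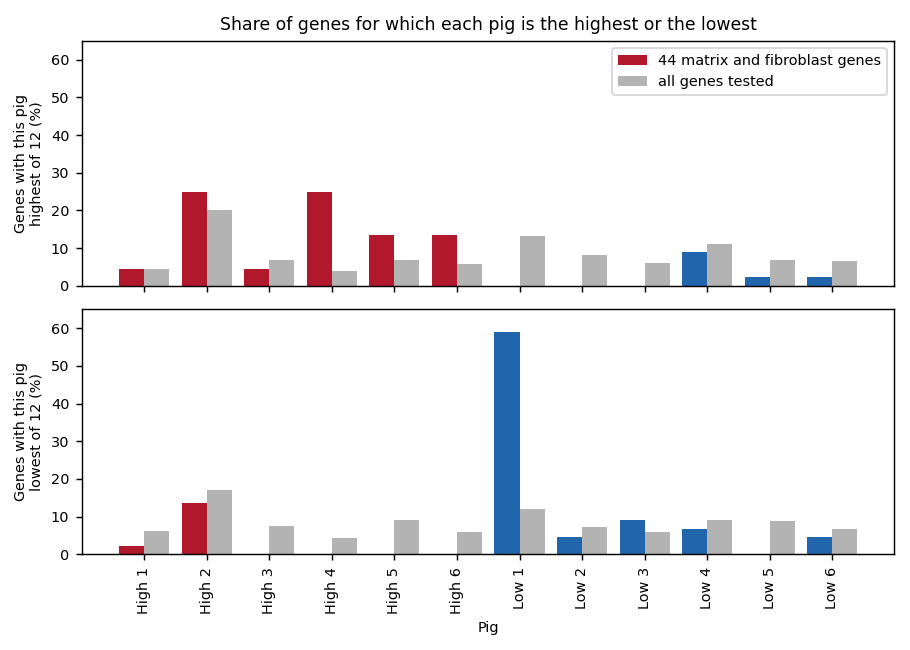
Share of genes (y axis, percent) for which each pig had the highest (top) or the lowest (bottom) level of the 12, for the 44 genes in red (High MB) or blue (Low MB) and for all genes tested in grey. Low MB pig 1 has the lowest value of 59.1% of the 44 genes and of 12% of all genes, and High MB pig 4 the highest of 25% and 3.96%.

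**Figure D5:**
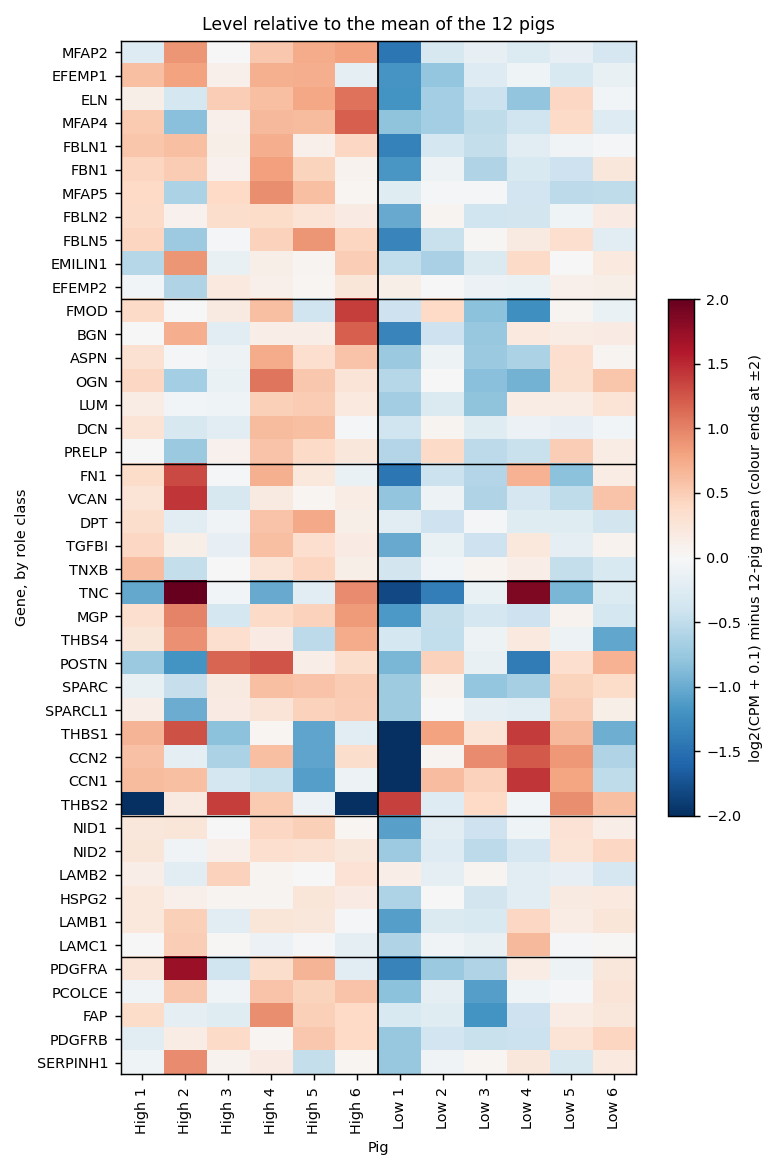
Level of each of the 44 genes (rows, by role class) in each pig (columns), as log2(CPM + 0.1) minus the mean of the 12 pigs, with colours ending at -2 and 2. The columns of Low MB pig 1 and High MB pig 4 are almost wholly blue and red, and High MB pig 2 mixes deep red (TNC, PDGFRA, VCAN, FN1) with blue (SPARCL1, MFAP4, POSTN).

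Per kilobase of RefSeq exon, levels over the 12 pigs were highest for SPARC (137 CPM per kb), DCN (79.9), MGP (52.4) and SPARCL1 (36.6) and lowest for PDGFRA (0.623) and POSTN (0.295). MGP at 52.4 and MFAP2 at 1.43 CPM per kb had similar log2 fold changes, 0.91 and 0.95. Those of SPARC, DCN and SPARCL1 were 0.38, 0.35 and 0.20, and those of PDGFRA and POSTN 0.91 and 0.45. Whether level and group difference were related was not tested. Of the 44 genes, 18 are overlapped by another RefSeq gene, and the strand setting of the counting is not given in the sources used here, so reads of such partners cannot be told apart.

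Other genes of the same pathways were counted by lists. Of 13 collagen genes, 5 were higher in the High MB group at an unadjusted edgeR p-value under 0.05, the foremost COL12A1 (log2 fold change 0.73, edgeR unadjusted p = 0.00117; DESeq2 adjusted p = 0.0661), COL1A2 (0.71, edgeR unadjusted p = 0.0133) and COL5A2 (0.55, edgeR unadjusted p = 0.0260), and 1 was lower, COL14A1 (-0.36, edgeR unadjusted p = 0.0380), which encodes a fibril-associated collagen that binds decorin. Of 13 genes for elastic fibre assembly and crosslinking, 4 were higher and 0 lower, with EMILIN2 (0.66, edgeR unadjusted p = 0.00194), the crosslinking enzyme LOX (0.68, edgeR unadjusted p = 0.0123) and ADAMTS10 (0.55, edgeR unadjusted p = 0.0226) in front. Matrix receptors and glycosaminoglycan synthesis were near the background of 5.33%, with 1 of 15 (ITGB3, 0.43, edgeR unadjusted p = 0.0482) and 1 of 14 (EXT1, 0.34, edgeR unadjusted p = 0.0324) higher and 0 lower. With each pig left out, the counts of higher genes ran from 2 to 8 collagens, 2 to 8 assembly genes, 0 to 4 receptors and 0 to 1 synthesis genes, and COL14A1 missed that p-value when any 1 of 7 pigs was left out. Of the higher genes named, COL5A2, ADAMTS10, ITGB3 and EXT1 also missed it in some of these settings. Leaving out Low MB pig 1 gave them edgeR unadjusted p-values of 0.0504, 0.0501, 0.0984 and 0.0736. Without Low MB pig 1 the counts were 2 of 13, 2 of 13, 0 of 15 and 0 of 14.

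Markers of other cell types in whole muscle moved in part with the groups. The median log2 fold change was 0.93 for macrophage and 0.87 for adipocyte markers, against 0.46 for the 44 matrix and fibroblast genes, and all 7 macrophage and all 6 adipocyte values were above 0, with 6 and 5 of them over 0.58. Without High MB pig 2 the macrophage values ran from 0.07 (CD68) to 0.93 (C1QA), with MRC1 in the middle at 0.59. The median of the 44 genes was 0.51 in that setting. The medians were 0.72 for tendon, 0.42 for T cell, 0.36 for smooth muscle and pericyte, 0.27 for endothelial, 0.05 for Schwann cell and -0.03 for muscle fibre markers. Without High MB pig 6, the smooth muscle genes MYH11 (-0.66), ACTA2 (-0.36), TAGLN (-0.04) and CNN1 (-0.68) lay below 0. RGS5 (0.26), CSPG4 (0.51) and NOTCH3 (0.21) of that list stayed above it. The endothelial median was 0.17 without Low MB pig 1. Of 7 macrophage markers, 6 were higher in the High MB group at an unadjusted edgeR p-value under 0.05 (5.33% of all genes tested), with sums of 52.8 to 118 CPM in the High MB pigs and 26.6 to 60.2 CPM in the Low MB pigs. The foremost was C1QA (log2 fold change 0.93, edgeR unadjusted p = 0.00276), a complement subunit. Adipocyte markers were higher for 2 of 6 (FABP4 and CIDEC), with sums of 175 to 366 CPM against 111 to 344 CPM, smooth muscle and pericyte markers for 1 of 7 (CSPG4; 186 to 896 CPM against 169 to 453 CPM), and endothelial markers for 1 of 5 (ERG; 122 to 167 CPM against 74.9 to 184 CPM). None of the T cell (5) or Schwann cell (5) markers tested reached that p-value, at sums of 2.88 to 7.88 against 2.45 to 6.01 CPM and 61.3 to 82.0 against 49.96 to 78.5 CPM. Tendon markers summed to 1.68 to 14.2 CPM against 1.34 to 3.50 CPM, of which TNMD and MKX did not pass the filter on low counts and were at 0 in some pigs of both groups, and COMP (log2 fold change 3.11, SE 1.28, edgeR unadjusted p = 0.0282) was 1 of 4 higher. With each pig left out the counts of higher markers ran from 4 to 6 for macrophage, 1 to 6 for adipocyte, 0 to 2 for smooth muscle and 1 to 4 for endothelial genes, against 3.88% to 7.24% of all genes tested. The macrophage count was 4 without High MB pig 2, that of adipocyte genes was 6 and that of endothelial genes 4 without Low MB pig 5. CSPG4 missed the p-value without High MB pig 6 (edgeR unadjusted p = 0.0603), and COMP without High MB pig 6 (edgeR unadjusted p = 0.113) or Low MB pig 1 (edgeR unadjusted p = 0.0530). No T cell marker reached it in any of these settings, while 1 Schwann cell marker was higher without High MB pig 2 and 1 lower without Low MB pig 4.

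Of the 5 muscle fibre markers, 1 was higher in the High MB group, with all pigs and with each pig left out. This was TNNT1, the gene of slow troponin T, which slow fibres make. TNNT1 ran from 1715 to 2622 CPM (median 1814) for High MB pigs and from 973 to 1780 CPM (median 1456) for Low MB pigs, and 4 of the High MB pigs exceeded the highest Low MB pig. Its log2 fold change was 0.56 (SE 0.18, edgeR unadjusted p = 0.00833; exact permutation p = 0.00649), while those of ACTA1, CKM, DES and TNNT3 were -0.24, -0.17, 0.00 and -0.03. High MB pig 6, in which ELN, BGN, FMOD and PCOLCE were highest, also had the highest smooth muscle sum (896 CPM) and tendon sum (14.2 CPM). The part of these cell types, and of slow fibres, in the differences of the matrix genes was not tested.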

How the data were processed

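LD RNA of 12 pigs was sequenced as paired-end libraries. Reads were trimmed (Trim Galore) and mapped with HISAT2 to Sscrofa11.1 by the authors, who deposited raw HTSeq counts for each gene. These counts, which carry no normalization, were used here. Versions, annotation release and strand setting are not given in the sources used here. Counts per transcript were not used. Between 47.0% and 48.2% of uniquely placed reads per pig were assigned to a gene. From 50.9% to 52.0% were counted as lying in no gene feature and 0.802% to 1.13% as ambiguous. The summary lines stayed out of library sizes.

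Groups came from the labels. The 44 genes were found by symbol in the gene name table. The members, their classes and the other lists were chosen with earlier results of these data known. The genes named were those with an unadjusted p-value under 0.05, the 4 on the study's own list, the highest in CPM of each class, those with an outlying pig, and at most 3 per pathway list. The pattern of single pigs, and the other genes and markers named, were chosen after their values were seen.

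Counts were tested with edgeR 4.0.16 in R 4.3.3 (TMM, filterByExpr by group, glmQLFit, glmQLFTest), with Benjamini-Hochberg adjustment over 13373 genes. DESeq2 1.42.0, which the study used, was an alternative. Standard errors (SE) were derived as the absolute log2 fold change divided by the square root of edgeR's F statistic. Log2 CPM took a prior count of 2. Exact two-sided permutation tests of mean log2 CPM ran over all 924 splits into 6 and 6. Both tools were tested on simulated data. Other alternatives were size factors, filters, thresholds, depth class, replicate block, and pigs left out. No library repeated another of its group, as chi-square values of counts, divided by their degrees of freedom, lay between 65.0 and 772 for pigs of the same group. The labels name individual pigs, which are the replicates. Positions, exon lengths and promoters came from RefSeq's annotation of Sscrofa11.1.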

Additional observations from a re-analysis of the deposited data

Results flagged for a closer look

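In 6 of the 88 groups of 6 pigs tested (44 genes in both groups), the highest or lowest pig lay further from the others than Dixon's 95% limit allows on the log2 CPM scale, where chance alone gives about 1 in 20 groups. On that scale the 6 concerned the same pair of pigs. Low MB pig 1 was far below its group for FBLN1 (5.13 CPM, the next pig at 9.44) and for MFAP2 (0.705 CPM, the next at 1.63). High MB pig 2 was far below its group for EFEMP2 (24.8 CPM, the next at 35.9) and SPARCL1 (62.4 CPM, the next at 137), and far above it for VCAN (37.9 CPM, the next at 16.9) and LAMC1 (191 CPM, the next at 139). In a repeat added after seeing the data, on CPM without the log, 9 groups exceeded the limit, 4 of them the same. The other 5 were TNC in High MB pig 2 (156 CPM, the next at 18.9) and in Low MB pig 4 (36.1 CPM, the next at 8.93), MFAP4 in Low MB pig 5 (17.6 CPM, the next at 11.2), and PDGFRA (11.5 CPM) and SERPINH1 (106 CPM, the next at 61.4) in High MB pig 2.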

How the results depend on the processing

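Of 102 comparisons of the 4 summary results with their alternatives, 98 were labelled the same. The rule was wide. It took counts of 15 or 26 as the same as 21, and a median within 0.37 log2 units of 0.465 as the same. The members called were 0 in each alternative except DESeq2, with 3. The count of members higher at an unadjusted p-value under 0.05 was 13 in the deep libraries alone and between 15 and 26 with each pig left out, where the median log2 fold change was between 0.33 and 0.53, the members called were 0 and the members lower were 0. The count of members lower was 1 in the standard libraries alone (CCN2) and 1 with High MB pig 2 and Low MB pig 1 left out together (CCN1), a setting chosen after seeing the data, as was High MB pig 2 and Low MB pig 4 left out together, which gave 23 higher. With upper quartile size factors 24 members were higher, and 82.0% of all genes with that p-value were on the High MB side, against 63.0% with TMM.

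The log2 fold changes of 7 members changed sign under some alternative. EFEMP2 was above 0 at 0.00214 (RLE size factors), 0.0479 (upper quartile), 0.00119 (DESeq2), 0.0156 (at least 10 counts in every pig), 0.0268 (depth class as covariate), 0.0095 (10 highest genes removed), 0.0999 (deep), 0.0141 (standard), 0.0841 and 0.12 (High MB pig 2 left out with Low MB pig 4 or 1), and between -0.0578 and 0.109 with each pig left out. TNC was between -0.196 (without High MB pig 2) and 2.56 with each pig left out, and -0.4 without High MB pig 2 and Low MB pig 1. THBS1 was 0.312 in the deep libraries and between -0.527 and 0.143 (without Low MB pig 4) with each pig left out, THBS2 0.207 in the standard and CCN2 0.67 in the deep libraries. LAMC1 was -0.0201 with the depth covariate, -0.043 in the standard libraries, between -0.0665 (without Low MB pig 1) and 0.213 with each pig left out, -0.0591 without High MB pig 2 and -0.161 without both, when SERPINH1 was -0.0586. The cause of these was not tested. Of 1099 pairs of member and setting, 1068 kept their direction and side.

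The individual numbers did not pair the pigs: deviations of same-numbered pigs correlated between -0.21 and 0.14, and 0 of 6 High MB pigs correlated best with their own number. With the number as a replicate block, 23 members were higher at an unadjusted p-value under 0.05 and 0 were called.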
